A study of Mus musculus with 3 samples.

Results

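The EGF and FGF receptors and ligands followed here were 10 of the 31053 genes in the matrices: the EGF family receptors Egfr, Erbb2 and Erbb3, the EGF family ligands Areg, Ereg, Hbegf and Tgfa, and the FGF receptors Fgfr1, Fgfr2 and Fgfr3. They were chosen by name, with earlier results of these data known. Bladder urothelium of mice was profiled cell by cell, with droplets and 3' end RNA sequencing, in 3 libraries, 1 from Lpar6 knockout, 1 from Cab39l knockout and 1 from wild-type tissue, and in each the cells of 15 animals were combined. The product of Lpar6 is a cell surface receptor that responds to lysophosphatidic acid, and that of Cab39l is a scaffold which holds the kinase LKB1 in its active complex. The labels give no strain, sex, age or extent of the deletions, and they state that the lining was freed with trypsin injected into the bladder. With 1 library per genotype no difference has a replicate check, so the differences below are descriptions with counting intervals, without p-values. Both knockouts were set against the same wild-type library.

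EGF family ligands are made as membrane-anchored precursors that are cut from the cell surface, chiefly by the protease Adam17. Areg, Ereg, Hbegf and Tgfa bind Egfr, which then pairs with itself or with Erbb2 or Erbb3. Erbb2 binds no known ligand, and Erbb3 binds neuregulins and has little kinase activity of its own. FGF receptors bind fibroblast growth factors, which are often made by neighbouring stroma, and signal through the adaptor Frs2 into the RAS and MAP kinase cascade. In the bladder, EGF receptor signalling is known from epithelial repair, while FGFR3 and ERBB2 are known as altered genes of human urothelial tumours.

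Urothelial cells were barcodes with at least 5000 unique molecular identifiers (UMIs), at most 20% mitochondrial UMIs and at least 0.2% of UMIs from the uroplakins Upk1a, Upk1b, Upk2 and Upk3a. This gave 4834 Lpar6 knockout, 5466 Cab39l knockout and 3176 wild-type cells, with 128620816, 159977320 and 78491895 UMIs. Urothelial keratins and Psca, which the rule did not use, summed to 8709, 10092 and 9193 CPM (UMIs per 1000000 UMIs of the summed cells). Fibroblast markers there summed to 2.32, 0.613 and 4.57 CPM and pan-immune markers to 1.73, 16.7 and 21.3 CPM, so the label fits the cells. No Lpar6 UMI was found in urothelial cells of the library labelled Lpar6 knockout, against 13.8 CPM in wild type, while Cab39l was 31.7 CPM in its own knockout and 112 CPM in wild type. The knockout cells were deeper and held fewer mitochondrial UMIs, with medians of 26994 (Lpar6 knockout) and 29960.5 UMIs (Cab39l knockout) against 22252.5 UMIs in wild type, and 6.27 and 6.17% mitochondrial UMIs against 9.02%. Accessory gland markers were 313 CPM in the Cab39l knockout cells against 11.7 CPM in wild type. Pairs of libraries shared 16 to 19 barcode sequences. Levels carry exact 95% Poisson intervals that cover counting error only.

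Promoters are shown from the RefSeq promoter table for 3 members, to set that of Areg, which passed 1.5-fold in both knockouts below, beside those of another ligand and of the receptor that both bind. Entries were found for 6 of the 10 members, namely Egfr, Erbb2, Areg, Tgfa, Fgfr2 and Fgfr3, and none were used for Erbb3, Ereg, Hbegf and Fgfr1. Each sequence is the 250 bases before the RefSeq start on GRCm38.p6, plus strand, 5′ to 3′. Capitals mark TGACGTCA, the palindromic cyclic AMP response element that CREB and ATF factors are known to bind, the GC box GGGCGG and the TATA sequence TATAAA, on either strand. The AP-1 sequence TGACTCA was searched too.
Areg, chr5:91139349-91139598: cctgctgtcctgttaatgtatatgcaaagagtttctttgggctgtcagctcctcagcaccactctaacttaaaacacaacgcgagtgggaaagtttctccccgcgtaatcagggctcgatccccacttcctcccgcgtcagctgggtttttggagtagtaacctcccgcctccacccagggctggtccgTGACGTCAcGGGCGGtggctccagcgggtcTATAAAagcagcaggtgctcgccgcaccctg
Tgfa, chr6:86194972-86195221: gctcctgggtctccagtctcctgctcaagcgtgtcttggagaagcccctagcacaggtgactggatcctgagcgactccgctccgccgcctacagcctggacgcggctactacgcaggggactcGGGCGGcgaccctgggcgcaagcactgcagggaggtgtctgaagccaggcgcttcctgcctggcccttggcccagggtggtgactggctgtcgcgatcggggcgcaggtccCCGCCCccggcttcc
Egfr, chr11:16751953-16752202: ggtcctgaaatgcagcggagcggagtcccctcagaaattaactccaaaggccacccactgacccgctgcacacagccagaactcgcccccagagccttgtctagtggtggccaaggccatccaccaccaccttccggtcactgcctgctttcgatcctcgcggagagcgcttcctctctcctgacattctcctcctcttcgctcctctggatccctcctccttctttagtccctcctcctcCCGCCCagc
The Areg window held TGACGTCA 61 bases before the start, a GC box at 52 bases and TATAAA at 31 bases, and the 3 did not overlap. Of 32851 promoter windows of the same length, 1.55% held TGACGTCA, 32.7% the GC box, 12.4% TATAAA and 4.46% TGACTCA, and 39 windows (0.119%) held both TGACGTCA and TATAAA. The Tgfa window held GC boxes at 126 and 15 bases and the Egfr window 1 at 9 bases, and neither held the other sequences. No window of the 6 members held TGACTCA. These are matches of letters, not binding sites.

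The ligand Areg (amphiregulin, ENSMUSG00000029378, mm10 chromosome 5, 91139599 to 91148432, plus strand) was lower in both knockout libraries. Its level in urothelial cells was 4.27 CPM in the Lpar6 knockout (interval 3.92 to 4.64, 549 UMIs) and 5.73 CPM in the Cab39l knockout (5.36 to 6.11, 916 UMIs), against 12.9 CPM in wild type (12.1 to 13.7, 1009 UMIs). Hbegf (heparin-binding EGF-like growth factor, ENSMUSG00000024486, chromosome 18, 36504927 to 36515805, minus strand) was 2.78 CPM (2.50 to 3.09) and 2.91 CPM (2.65 to 3.18), against 10.4 CPM (9.73 to 11.2). For both ligands the 2 knockout values lay far below the wild-type one. The 2 knockout intervals overlapped for Hbegf and were apart for Areg. Tgfa (transforming growth factor alpha, ENSMUSG00000029999, chromosome 6, 86195223 to 86275719, plus strand) was 19.7 CPM (19.0 to 20.5) and 18.5 CPM (17.9 to 19.2), against 33.1 CPM (31.9 to 34.4). Ereg (epiregulin, ENSMUSG00000029377, chromosome 5, 91074622 to 91093646, plus strand) was barely present, with 6 and 8 UMIs in the knockouts and 4 in wild type, which is at most 0.051 CPM in any library.

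Of the EGF receptors, Egfr (ENSMUSG00000020122, chromosome 11, 16752203 to 16918158, plus strand) was 6.79 CPM in the Lpar6 knockout (6.34 to 7.25) and 6.28 CPM in the Cab39l knockout (5.90 to 6.68), against 12.9 CPM in wild type (12.1 to 13.7). Erbb2 (ENSMUSG00000062312, chromosome 11, 98412470 to 98437716, plus strand) was 22.8 CPM (21.96 to 23.6) and 25.6 CPM (24.8 to 26.4), against 43.1 CPM (41.7 to 44.6). Erbb3 (ENSMUSG00000018166, chromosome 10, 128567523 to 128589652, minus strand) was 40.1 CPM (39.0 to 41.2) and 39.3 CPM (38.3 to 40.3), against 53.7 CPM (52.1 to 55.3). Of these 3 receptors, Erbb3 stood closest to its wild-type level. Most genes were also lower in both knockouts, as given below.

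Of the FGF receptors, Fgfr3 (ENSMUSG00000054252, chromosome 5, 33721674 to 33737068, plus strand) stood furthest below wild type, at 15.0 CPM in the Lpar6 knockout (14.3 to 15.6) and 17.2 CPM in the Cab39l knockout (16.6 to 17.9), against 35.0 CPM in wild type (33.7 to 36.4). Fgfr2 (ENSMUSG00000030849, chromosome 7, 130162451 to 133123350, minus strand) was 8.12 CPM (7.63 to 8.62) and 8.66 CPM (8.21 to 9.13), against 13.0 CPM (12.2 to 13.8). Fgfr1 (ENSMUSG00000031565, chromosome 8, 25513654 to 25575718, plus strand) was 5.02 CPM (4.64 to 5.43) and 3.83 CPM (3.53 to 4.15), against 6.99 CPM (6.42 to 7.60). The wild-type CPM was thus the highest for each member before the median gene was taken off, though for Ereg the 3 intervals overlapped.

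**Figure D1:**
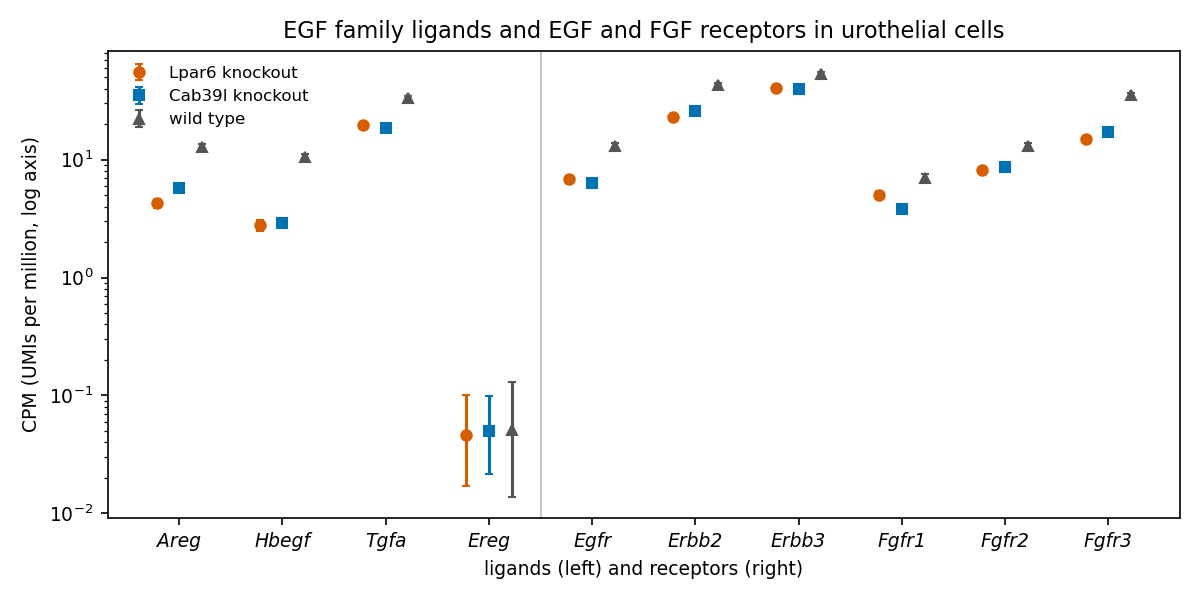
Levels of the 4 ligands and 6 receptors in urothelial cells (CPM, log axis) in the Lpar6 knockout, Cab39l knockout and wild-type library, with exact 95% Poisson intervals. The wild-type point is the highest for each gene, and the 3 intervals of Ereg overlap.

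Most genes differed in the same direction, so the members were also read against the median gene. Over 12926 genes with at least 50 UMIs, the median log2 ratio of (CPM + 1) was -0.31 for the Lpar6 knockout against wild type, and it was -0.28 over 13052 genes for the Cab39l knockout. Long transcripts were lower still: in the 25% of genes with the longest transcripts, from about 4.47 kb, the median relative to all genes was -0.33 (Lpar6 knockout) and -0.40 (Cab39l knockout), while it was 0.36 and 0.34 in the 25% with the shortest. The longest annotated transcript is 10.2 kb for Egfr and 1.22 kb for Areg. Values are therefore given relative to the median gene and, beside it, relative to genes of like length. Genotype and library cannot be told apart.

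In the Lpar6 knockout, 3 of the 9 measured members were at least 1.5-fold lower than wild type relative to the median gene and 0 were higher. Of all genes measured, 5.49% were lower by that rule and 7.67% higher. The 3 were Hbegf (log2 -1.29, and -1.37 against genes of like length), Areg (-1.09 and -1.49) and Fgfr3 (-0.87 and -0.67). The ratio of CPM was 0.267 for Hbegf (0.235 to 0.302), 0.332 for Areg (0.299 to 0.369) and 0.427 for Fgfr3 (0.402 to 0.453). Against genes of like length the same 3 genes passed, where 2.60% of all genes were lower and 4.18% higher. As the members were chosen with earlier results of these data known, a larger share among them is no support for a theme. The same holds for the Cab39l knockout below. In cells of 5 to 10% mitochondrial UMIs and 15000 to 40000 UMIs (3282 Lpar6 knockout and 1159 wild-type cells), Areg was -1.60, Hbegf -1.45 and Fgfr3 -0.75. Erbb2 lay at the edge of the rule with -0.58 and moved to -0.29 against genes of like length, and Egfr moved from -0.53 on the median scale to -0.12 on the length scale. Tgfa was -0.41 on the median scale and -0.19 on the length scale, and Fgfr2 was -0.31 and -0.11. Erbb3 and Fgfr1, both -0.10 relative to the median gene, changed sign to 0.22 and 0.19 relative to genes of like length.

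In the Cab39l knockout, 4 of the 9 measured members were at least 1.5-fold lower than wild type relative to the median gene and 0 were higher, where 7.55% of all genes were lower and 5.47% higher. They were Hbegf (log2 -1.27, and -1.39 against genes of like length), Areg (-0.77 and -1.13), Fgfr3 (-0.71 and -0.48) and Egfr (-0.66 and -0.15). The ratio of CPM was 0.279 for Hbegf (0.248 to 0.313), 0.445 for Areg (0.407 to 0.488), 0.492 for Fgfr3 (0.466 to 0.519) and 0.486 for Egfr (0.445 to 0.531). Against genes of like length 2 members, Hbegf and Areg, stayed past 1.5-fold, where 2.16% of all genes were lower and 3.06% higher. In the 2945 cells of 5 to 10% mitochondrial UMIs and 15000 to 40000 UMIs, Hbegf was -1.31 and Areg -1.27 relative to the median gene, while Fgfr3 (-0.53) and Egfr (-0.49) were short of 1.5-fold. Tgfa was -0.53 on the median scale and -0.24 on the length scale. Erbb2 was -0.45 and -0.11, Fgfr1 -0.45 and -0.10 and Fgfr2 -0.25 and -0.02, while Erbb3 went through 0, with -0.16 on the median scale and 0.23 on the length scale. The median over the 9 members was -0.53 in each knockout, against 0 over all genes by construction, and -0.19 (Lpar6 knockout) and -0.15 (Cab39l knockout) on the length scale.

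Set directly against each other, the 2 knockout libraries differed in none of the 9 members by 1.5-fold, where 0.936% of all genes were higher and 1.03% lower in the Lpar6 knockout, and 0.907 and 1.03% against genes of like length. The median gene there differed by a log2 under 0.001. Areg was lower in the Lpar6 knockout than in the Cab39l knockout by a log2 of -0.35, with a CPM ratio of 0.745 (0.669 to 0.830). Fgfr1 was higher by 0.32, with a ratio of 1.31 (1.17 to 1.47), and Fgfr3 lower by -0.19, with a ratio of 0.868 (0.818 to 0.920). Hbegf had a ratio of 0.958 (0.832 to 1.10), Egfr of 1.08 (0.986 to 1.18) and Fgfr2 of 0.937 (0.864 to 1.02), intervals that hold 1.

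**Figure D2:**
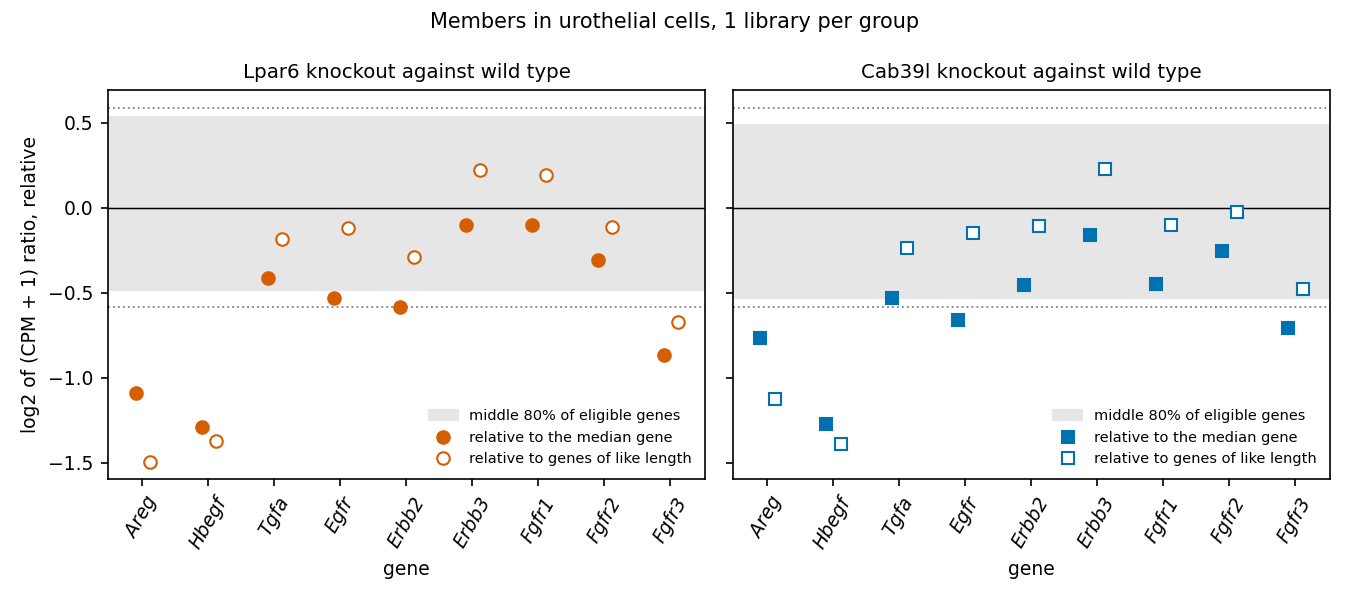
log2 of the (CPM + 1) ratio in urothelial cells for the Lpar6 knockout (left) and Cab39l knockout (right) against wild type, relative to the median gene (filled) and to genes of like transcript length (open); the band holds the middle 80% of eligible genes and dotted lines mark 1.5-fold. Hbegf and Areg lie below the lower line on both scales in both panels, and Egfr moves from -0.53 and -0.66 to -0.12 and -0.15.

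To compare how many cells held each transcript, all urothelial cells were thinned to 5000 UMIs, and none was too shallow. Fgfr3 was found in 7.67% (exact binomial interval 6.94 to 8.46) of the cells from Lpar6 knockouts and in 9.17% (8.41 to 9.96) of those from Cab39l knockouts, against 16.9% (15.6 to 18.3) in wild type. Without thinning the Fgfr3 shares were 31.6, 37.9 and 54.1%. Hbegf was found in 1.43% (1.11 to 1.80) and 1.59% (1.28 to 1.96) of knockout cells, against 3.62% (2.999 to 4.33) of wild-type cells, and Areg in 1.82% (1.46 to 2.24) and 2.21% (1.84 to 2.64), against 3.21% (2.63 to 3.89). The Areg share thus stood less far apart than the Areg level, because a positive cell held 1.25 and 1.33 UMIs in the knockouts and 2.15 UMIs in wild type. A cell positive for Hbegf held 1.12 and 1.03 UMIs in the knockouts and 1.56 in wild type, whereas for the other measured members it held between 1.01 and 1.16 UMIs in every library. Egfr was found in 3.60 and 3.71% of knockout cells and 6.42% of wild-type cells, Erbb2 in 11.3 and 12.3% and 19.2%, Erbb3 in 18.7 and 17.4% and 24.1%, and Tgfa in 9.23 and 8.65% and 15.2%.

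The UMIs of Areg and Hbegf were gathered in few cells. The 1% of urothelial cells with the most Areg held 39.9% of its UMIs in the Lpar6 knockout, 45.6% in the Cab39l knockout and 58.1% in wild type, and the highest single cells had 30, 46 and 84 UMIs. For Hbegf these shares were 29.6, 30.8 and 47.6%, and the highest cells had 7, 10 and 32 UMIs. For the other 7 measured members the share was between 4.85 and 15.3%. With the top 1% of cells of each library left out, Areg was 2.59 and 3.15 CPM in the knockouts against 5.45 CPM in wild type, and Hbegf was 1.98 and 2.04 CPM against 5.53 CPM. The wild-type level was thus higher in the remaining cells too, by less for both ligands. Relative to the median gene, Areg was then -0.54 for Lpar6 knockout and -0.36 for Cab39l knockout cells, short of 1.5-fold in both, while Hbegf was -0.82 and -0.83 and Fgfr3 -0.90 and -0.72. This setting was chosen after seeing the data. Counting intervals treat UMIs as independent and are too narrow for genes gathered in this way.

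**Figure D3:**
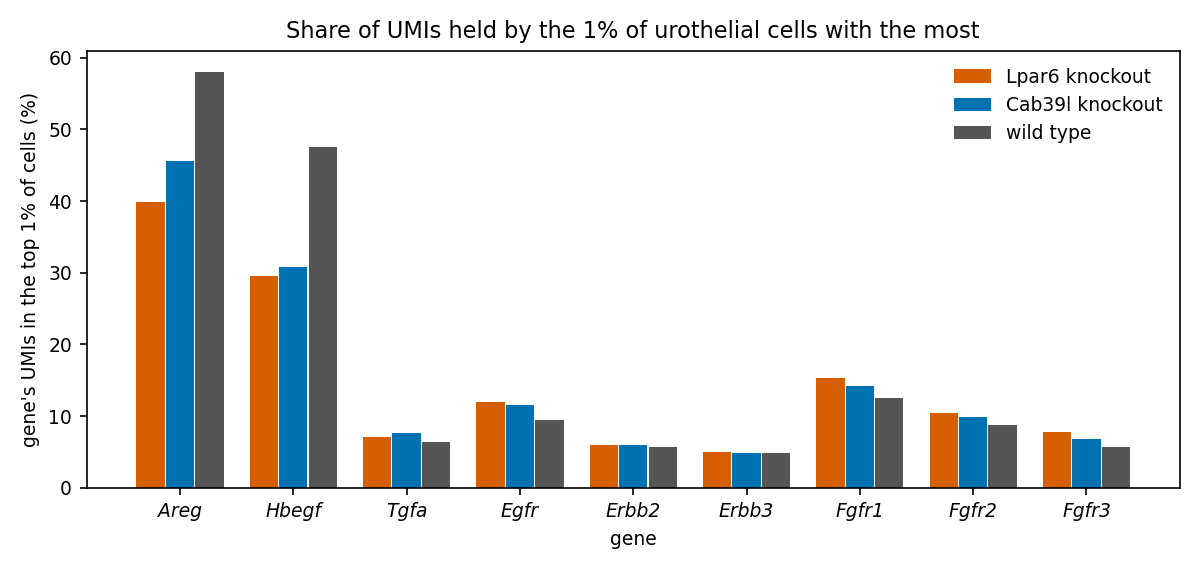
Share of each gene's UMIs (%) held by the 1% of urothelial cells with the most UMIs of that gene, in the Lpar6 knockout, Cab39l knockout and wild-type library. Areg and Hbegf stand above the other 7 genes in each library, with wild type the highest at 58.1% and 47.6%.

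Some early response genes were lower beside both ligands. A list of 8 (Fos, Fosb, Jun, Junb, Egr1, Atf3, Ier2 and Dusp1), chosen after values were seen and so no support for a theme, summed to 738 CPM in the Lpar6 knockout and 730 CPM in the Cab39l knockout, against 1257 CPM in wild type. Relative to the median gene, 4 of the 8 were 1.5-fold lower in the Lpar6 knockout (Fosb, Jun, Egr1 and Atf3), where 5.49% of all genes were lower, and Fos joined them in the Cab39l knockout, where 7.55% were. Junb (-0.09 and -0.08), Ier2 (-0.27 in both) and Dusp1 (-0.40 and -0.41) were short of it. Atf3, a transcription factor of the stress response, was 3.19 and 8.79 CPM against 25.9 CPM, and Egr1, an early growth response factor, was 26.6 and 22.2 CPM against 90.8 CPM. After thinning, cells with an Atf3 UMI made up 1.24 and 3.44% of knockout cells and 4.69% of wild-type cells. In those cells Areg was 50.0 CPM (28.0 to 82.5) for Lpar6 knockout and 37.2 CPM (25.9 to 51.8) for Cab39l knockout tissue, against 136 CPM (110 to 165) in wild type. Hbegf there was 23.3 CPM (9.38 to 48.1) and 11.7 CPM (5.84 to 20.9), against 137 CPM (112 to 166). In cells without an Atf3 UMI, Areg was 3.98 and 4.77 CPM against 7.80 CPM, and Hbegf was 2.93 and 2.99 CPM against 5.09 CPM. Both ligands were thus higher in Atf3-positive cells in each library, and the knockout CPM were the lower ones in cells of either kind. The median gene, also lower in both knockouts, was not taken off here. Whether either ligand passed 1.5-fold in these cells was not tested. The part of the early response in the ligand differences was not tested.

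Involucrin (Ivl), a cornified envelope protein of differentiating epithelia, was 378 and 432 CPM in the knockouts against 689 CPM in wild type. In thinned cells with an Ivl UMI, Areg was 4.89 CPM (3.95 to 5.98) for Lpar6 knockout and 6.89 CPM (5.84 to 8.07) for Cab39l knockout tissue, against 14.3 CPM (12.5 to 16.4) in wild type. In cells without one it was 3.24 CPM (1.85 to 5.27) and 1.56 CPM (0.675 to 3.08), against 8.30 CPM (4.29 to 14.5). The intervals with and without Ivl were apart in the Cab39l knockout library and overlapped in the others. Hbegf differed little with Ivl, at 3.22 and 3.04 CPM with and without it in the Lpar6 knockout, 3.33 and 3.13 CPM in the Cab39l knockout, and 11.5 and 8.997 CPM in wild type.

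Correlations across single thinned cells were weak, as sparse counts give. By a fixed rule no gene could be named as most like a member, since none of 9991 genes reached a Pearson r of 0.1 in every library for a member found in at least 5% of cells. Outside that rule, and chosen after its values were seen, Areg and Atf3 had an r of 0.11 over the Lpar6 knockout, 0.15 over the Cab39l knockout and 0.37 over the wild-type cells, and Hbegf and Atf3 had 0.11, 0.07 and 0.46. Areg and the keratin Krt23 had 0.10, 0.14 and 0.25, and Areg and Hbegf themselves had 0.14, 0.04 and 0.27. For Erbb2, Erbb3 and Fgfr3 the genes of highest mean r were mitochondrial transcripts. Erbb2 and mt-Co1 had 0.05, 0.07 and 0.19, and Fgfr3 and mt-Co3 had 0.06, 0.08 and 0.15. These values share library, depth and dropout and describe only which counts fell in the same cells. A ligand and a receptor were counted in the same thinned cell at rates on either side of the product of their shares. Tgfa with Egfr was found in 9 Lpar6 knockout, 14 Cab39l knockout and 39 wild-type cells, where the products gave 16.1, 17.6 and 31.0. Tgfa with Erbb3 was found in 2.07% of Lpar6 knockout, 1.85% of Cab39l knockout and 3.999% of wild-type cells, where the products were 1.72, 1.504 and 3.67%.

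The urothelial cells of each library were ranked by the share of their UMIs in the basal markers Krt5, Krt14, Krt15 and Trp63, and the 25% with the highest share (basal-high cells) were compared with the 25% with the lowest (basal-low cells). In basal-high cells 0 of the 9 measured members were 1.5-fold higher in all 3 libraries and 0 were lower, where 1.37% of all genes were higher and 1.20% lower. These bins are ranges and not cell types. The median basal-high cell was shallower, with 22883, 20048.5 and 18061.5 UMIs in the Lpar6 knockout, Cab39l knockout and wild type, against 28948, 35143 and 28404.5 UMIs for basal-low cells. Hbegf was 20.3 CPM in basal-high and 6.54 CPM in basal-low wild-type cells, a log2 of 1.53 relative to the median gene, whereas it was 3.32 and 3.17 CPM in the Lpar6 knockout (0.01) and 3.53 and 3.57 CPM in the Cab39l knockout (-0.01). With the top 1% of cells of each bin left out, wild-type Hbegf was still 9.41 CPM in basal-high and 4.67 CPM in basal-low cells. Tgfa was lower in basal-high cells of each library, by -0.36, -0.30 and -0.47, short of 1.5-fold. Egfr was higher there by 0.30, 0.51 and 0.09, and Fgfr2 by 0.21, 0.36 and 0.41. The counting interval held 0 for Egfr in wild type (-0.18 to 0.37) and for Fgfr2 in the Lpar6 knockout (-0.009 to 0.49).

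Within each of the 4 bins the knockouts were again set against wild type, but the bins were unlike: the median basal marker share of basal-high cells was 0.109% for Lpar6 knockout and 0.405% for Cab39l knockout tissue, against 0.411% in wild type. Krt15 over all urothelial cells was 216 and 1127 CPM against 1099 CPM, and the part of this difference in the Lpar6 knockout values was not tested. Fgfr3 was lower in every bin, with a log2 relative to the median gene between -0.94 and -0.71 in the Lpar6 knockout and between -0.74 and -0.47 in the Cab39l knockout. Hbegf was -2.03 in basal-high and -0.49 in basal-low cells of the Lpar6 knockout, and -1.96 and -0.41 in those of the Cab39l knockout. In basal-low cells Hbegf was thus short of 1.5-fold in both. Areg was -0.86 and -1.20 in basal-high and basal-low cells of the Lpar6 knockout, and -1.59 and -0.37 in those of the Cab39l knockout. Tgfa lay between -0.42 and -0.28 in the Lpar6 knockout and between -0.58 and -0.36 in the Cab39l knockout. The differences of Areg and Hbegf thus varied more along this ranking than those of Tgfa and Fgfr3.

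**Figure D4:**
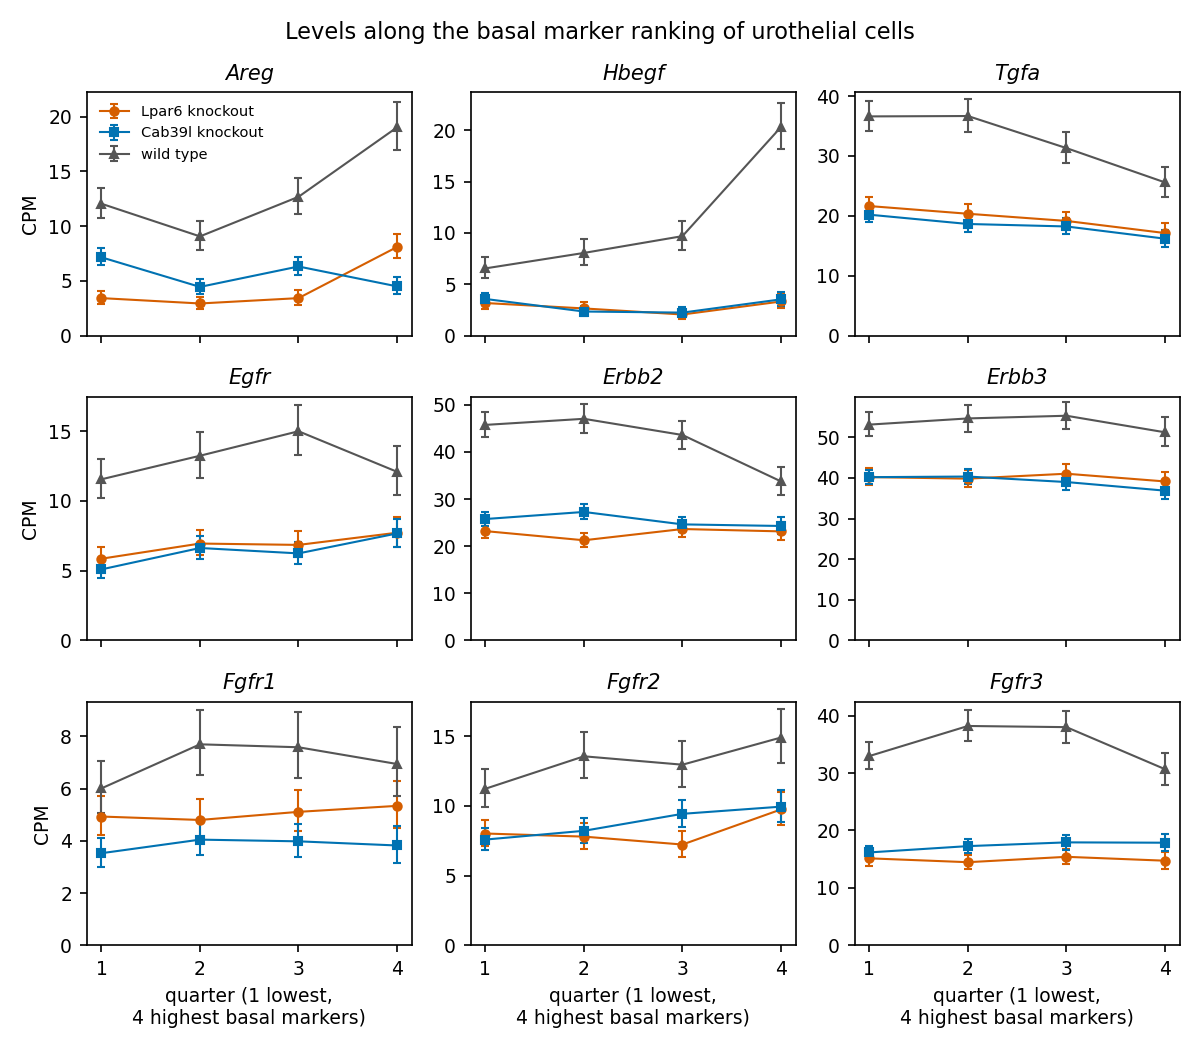
Levels (CPM, exact 95% Poisson intervals) of the 9 measured members in urothelial cells ranked by basal marker share and split into 4 bins of 25% of cells, for the Lpar6 knockout, Cab39l knockout and wild-type library. Hbegf climbs to 20.3 CPM in the highest wild-type bin and lies between 2.06 and 3.57 CPM in the knockouts.

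Fibroblast-like barcodes were chosen by 10 matrix and stromal markers and immune-like barcodes by 7 pan-immune markers, none of them a member. There were 43, 5 and 12 fibroblast-like and 71, 188 and 630 immune-like barcodes in the Lpar6 knockout, Cab39l knockout and wild type, with median depths of 3639, 2310 and 7619 UMIs and of 2460, 3928.5 and 3034.5 UMIs. Loose urothelial RNA reached both classes: uroplakins stood at 15.4, 20.8 and 5.96% of their urothelial level in fibroblast-like and at 17.0, 12.1 and 12.4% in immune-like barcodes. The level that this carry-over alone would give is set beside each value below.

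Fgfr1 was the member most plainly higher in fibroblast-like barcodes. It was 135 CPM in fibroblast-like barcodes of the Lpar6 knockout (83.4 to 206, 21 UMIs), against 5.02 CPM in urothelial cells of that library, a ratio of 26.8 (16.5 to 41.4), where carry-over would give 0.773 CPM. In wild type it was 245 CPM (152 to 374, 21 UMIs) against 6.99 CPM, a ratio of 35.0 (21.5 to 54.1), and the Cab39l knockout had 1 UMI in its 5 barcodes. Egfr was 51.3 CPM (22.2 to 101, 8 UMIs) against 6.79 CPM in the Lpar6 knockout, a ratio of 7.56 (3.25 to 15.0), and 69.97 CPM (25.7 to 152, 6 UMIs) against 12.9 CPM in wild type, a ratio of 5.42 (1.98 to 11.8). Only the Lpar6 knockout library held at least 20 fibroblast-like barcodes, and there 2 of the 9, Fgfr1 and Egfr, stood at least 2-fold above urothelial cells, where 24.0% of all genes were. On the same library 4 members were 2-fold lower, where 26.6% of all genes were. These 4 were Erbb3 with 2 UMIs and Areg, Hbegf and Fgfr3 with none. The Erbb3 ratio was 0.320 (0.0387 to 1.16), an interval that holds 1. For Areg, Hbegf and Fgfr3, 0 UMIs in this class allow a level of up to 19.2 CPM, above the urothelial levels of all 3. Their absence was thus not detectable at this depth. After thinning to 1000 UMIs neither Fgfr1 nor Egfr met the UMI minimum, and Fgfr1 was found in 4 of 43 fibroblast-like barcodes (9.30%) against 0.600% of urothelial cells of the Lpar6 knockout. Ereg had 3 UMIs in the 12 wild-type fibroblast-like barcodes and none in the other fibroblast-like barcodes.

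**Figure D5:**
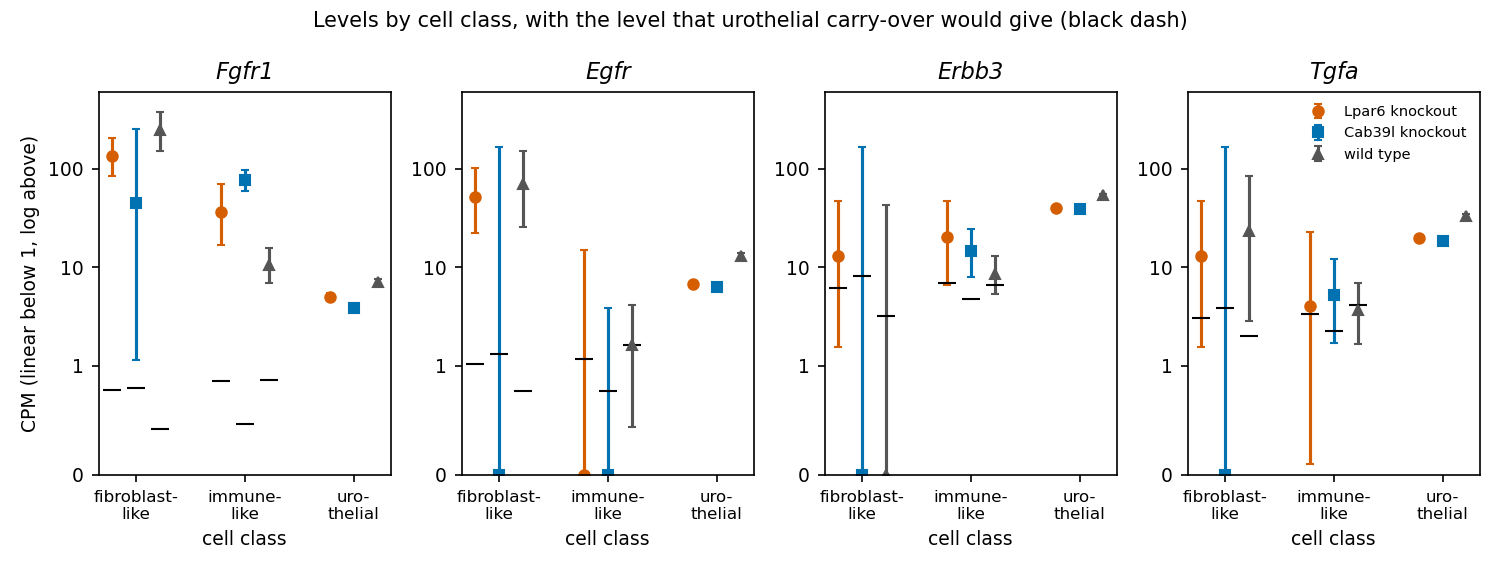
Levels of Fgfr1, Egfr, Erbb3 and Tgfa (CPM, linear below 1 and log above, exact 95% Poisson intervals) in fibroblast-like, immune-like and urothelial barcodes of the 3 libraries; black dashes give the level that urothelial carry-over would produce. Fgfr1 stands above its dash in each class and library, with 135 and 245 CPM in fibroblast-like barcodes of the Lpar6 knockout and wild type.

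In immune-like barcodes no member was at least 2-fold higher than in urothelial cells in all 3 libraries, where 8.63% of all genes were, and 3 members, Egfr, Areg and Tgfa, were 2-fold lower in all 3, where 12.3% of all genes were. In the Lpar6 knockout 0 UMIs of Egfr and of Areg allow up to 12.1 CPM, above their urothelial levels, so that library alone could not show it. Tgfa rested on 1 UMI in the Lpar6 knockout, with a ratio of 0.205 (0.00518 to 1.14). Areg rested on 1 UMI in the Cab39l knockout, with a ratio of 0.183 (0.00462 to 1.02). Both of these intervals hold 1. In wild type the immune-like counts of Erbb2, Tgfa, Egfr and Areg lay near carry-over. Wild-type immune-like barcodes held 10 Erbb2 UMIs where carry-over would give 13.2, 9 Tgfa UMIs where it would give 10.1, 4 Egfr UMIs for 3.94 and 5 Areg UMIs for 3.92. Erbb3 had 21 UMIs for 16.4 and Fgfr3 19 UMIs for 10.7. The Cab39l knockout held 14 Erbb3 UMIs where carry-over would give 4.56, a level of 14.6 CPM (8.001 to 24.6), and 5 Fgfr2 UMIs for 1.01. The Lpar6 knockout held 5 Erbb3 UMIs for 1.69 and 3 Erbb2 UMIs for 0.96. After thinning to 1000 UMIs, Erbb3 was found in 4.16, 3.86 and 4.82% of urothelial cells. In B-like barcodes it was found in 0 of 24, 2 of 108 and 3 of 161. In T- or NK-like barcodes it was found in 0 of 10, 1 of 20 and 1 of 198. In macrophage- or dendritic-like barcodes it was found in 2 of 37, 1 of 60 and 2 of 226. Whether these Erbb3 counts are background was not tested. Hbegf had 13 UMIs in wild-type immune-like barcodes, 5.27 CPM (2.81 to 9.02), where carry-over would give 3.18 UMIs, and 1 and 3 UMIs in the knockouts.

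Fgfr1 stood furthest above carry-over in immune-like barcodes of each library. The Lpar6 knockout had 9 UMIs there, a level of 36.3 CPM (16.6 to 69.0), the Cab39l knockout 73 UMIs, a level of 76.3 CPM (59.8 to 95.9), and wild type 26 UMIs, a level of 10.5 CPM (6.89 to 15.5). These levels were 7.24, 19.9 and 1.51 times the urothelial ones. Carry-over would give 0.212, 0.445 and 2.13 UMIs. After thinning to 1000 UMIs, Fgfr1 was found in 3 of 37, 11 of 60 and 2 of 226 macrophage- or dendritic-like barcodes and in none of the B-like ones. The mix of immune-like barcodes differed between libraries, with 37 of 71, 60 of 188 and 226 of 630 macrophage- or dendritic-like. In the macrophage- or dendritic-like ones Fgfr1 was 61.0 CPM in the Lpar6 knockout, 174 CPM in the Cab39l knockout and 19.0 CPM in wild type. Fibroblast markers in immune-like barcodes summed to 8.08, 15.7 and 3.25 CPM, against at least 21473 CPM in fibroblast-like barcodes.

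Within the 3 classes, nearly all UMIs of the measured members came from urothelial cells, which outnumbered the other classes. Barcodes outside the 3 classes were not counted here. Over all genes, all barcodes held 1.39e+08 (Lpar6 knockout), 1.75e+08 (Cab39l knockout) and 1.02e+08 UMIs (wild type). Urothelial cells held 1.29e+08, 1.60e+08 and 7.85e+07 of them. Of the UMIs in the 3 classes, the urothelial share was between 98.4 and 100% for Areg, Hbegf, Tgfa, Egfr, Erbb2, Erbb3, Fgfr2 and Fgfr3 in each library. For Fgfr1 it was 95.6% in the Lpar6 knockout (93.7 to 97.0), 89.2% in the Cab39l knockout (86.7 to 91.4) and 92.1% in wild type (89.7 to 94.1). Of the few Ereg UMIs, 6 of 6, 8 of 8 and 4 of 7 were urothelial. These shares follow the yield of each cell class in the suspension.

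Other ligands and receptors of both families were read over the 3 libraries together. Fgf2, a fibroblast growth factor, had 15 UMIs or 56.8 CPM (31.8 to 93.7) in fibroblast-like barcodes and 0.030 CPM in urothelial cells, and Nrg2, a neuregulin, had 6 UMIs or 22.7 CPM (8.34 to 49.5) and 2.43 CPM. Fgf1 was counted mainly in urothelial cells, with 2186 UMIs or 5.95 CPM, as were Fgfrl1, a receptor without kinase domain, with 5.12 CPM, Btc (betacellulin, another Egfr ligand) with 2.87 CPM and Egf with 1.32 CPM. Fgf1 and Btc had 3 and 2 UMIs in fibroblast-like barcodes, too few to place. Fgf7 and Fgf9 had 2 UMIs each, Fgf18 3 and Fgf10 1 in fibroblast-like barcodes. Nrg1 had 8 UMIs in immune-like barcodes and 14 in urothelial cells. Nrg4 had 56 UMIs and Epgn 13 in urothelial cells, while Erbb4 had 1 and Fgfr4 none in any class.

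Of 51 other pathway genes, 38 were measured in urothelial cells. In the Lpar6 knockout 1 was at least 1.5-fold higher than wild type and 4 were lower, where 7.67 and 5.49% of all genes were. Hras, a RAS GTPase, was 289 CPM against 225 CPM (log2 0.67 relative to the median gene). The lower ones were Cbl, a ubiquitin ligase of activated Egfr, at 20.02 against 40.8 CPM (-0.68), Adam17 at 12.5 against 24.97 CPM (-0.64), Sos1, a RAS exchange factor, at 10.1 against 19.8 CPM (-0.60), and Dusp4, a MAP kinase phosphatase, at 19.0 against 36.4 CPM (-0.60). In the Cab39l knockout 0 were higher and 6 lower, where 5.47 and 7.55% of all genes were: Sos1 at 9.38 CPM (-0.73), Cbl at 19.9 CPM (-0.72), Adam17 at 12.6 CPM (-0.65), Dusp4 at 18.9 CPM (-0.64), Spred1, an inhibitor of RAS signalling, at 5.21 against 10.5 CPM (-0.61), and Frs2 at 7.13 against 14.1 CPM (-0.61). Against genes of like length, only Hras stayed past 1.5-fold in the Lpar6 knockout (0.69) and only Dusp4 in the Cab39l knockout (-0.62). The list's median was -0.19 and -0.10, and -0.03 and 0.00 on the length scale. With both directions counted, the shares of 5 of 38 and 6 of 38 are near those of all genes. By direction, on the median scale, the 4 and 6 lower genes of 38 are larger shares than 5.49 and 7.55%. The 1 and 0 higher genes are smaller shares than 7.67 and 5.47%. On the length scale 0 and 1 of the 38 were lower, where 2.60 and 2.16% of all genes were. There 1 and 0 were higher, where 4.18 and 3.06% of all genes were. With counts this small, no difference from all genes is read. Between the knockouts 0 of the 38 were 1.5-fold apart. Dusp4 and Egr1, which passed, are known targets of MAP kinase signalling. Others of that kind, named after their values were seen, were short of 1.5-fold in both knockouts: Dusp6 was 1.21 and 1.94 CPM against 2.59 CPM, Etv5 1.87 and 1.71 CPM against 2.51 CPM, and Spry2, a feedback inhibitor, 1.17 and 1.63 CPM against 1.52 CPM.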

How the data were processed

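The files the authors deposited hold UMI counts for each gene in each barcode, neither scaled nor normalized, with Cell Ranger 3.0.2 and mm10 named in the submitters' processing notes. The annotation release was not given in the sources used here. UMIs of each library and cell class were summed and scaled to CPM. Exact 95% Poisson intervals, exact binomial (Clopper-Pearson) intervals for shares and conditional binomial intervals for ratios cover counting error only, and the floor for 0 UMIs is 3 counts over a class. Folds are log2 of (CPM + 1) ratios, with a pseudocount of 1 CPM, over genes with at least 50 UMIs in both libraries together. The median of those genes, or of genes of like length in 20 bins, was taken off. Named were the members, pathway genes past 1.5-fold (at most 8 per comparison), the list's ligands and receptors, and genes most like a member by r. Dusp6, Etv5, Spry2, Krt23, the 2 mitochondrial transcripts and the early response genes were named after their values were seen. Members and lists were chosen with earlier results of these data known.

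Fibroblast-like and immune-like barcodes had at least 1000 UMIs, at most 20% mitochondrial UMIs, at least 3 markers found and 0.5% or 0.2% of UMIs from their markers. Immune subclasses followed the largest of 4 marker sums. Carry-over is a gene's urothelial CPM times the uroplakin level of the class over that in urothelial cells. Scrublet in scanpy 1.11.5 marked 0 of 5828, 0 of 6660 and 32 of 4474 barcodes in the Lpar6 knockout, Cab39l knockout and wild type, too few to have worked, so doublets were not removed and leaving out the 6% with the highest scores was an alternative. Lengths and positions came from GENCODE vM21 (mm10), which held 30934 of the 31053 gene identifiers. Steps were tested on simulated data. Python 3.11.15, numpy 2.4.6, scipy 1.17.1, pandas 2.3.3 and matplotlib 3.10.9 were used, and TMM and median-of-ratios factors came from edgeR 4.0.16 and DESeq2 1.42.0 in R 4.3.3. Alternatives covered scaling, length, pseudocount, gene and cell filters, depth, doublets and class cuts.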

Additional observations from a re-analysis of the deposited data

Results flagged for a closer look

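Areg differed in opposite directions along the basal marker ranking. Between the 25% of urothelial cells with the highest and the 25% with the lowest basal marker share, its log2 relative to the median gene was 0.997 in the Lpar6 knockout (8.10 and 3.43 CPM), -0.563 in the Cab39l knockout (4.50 and 7.16 CPM) and 0.647 in wild type (19.0 and 12.1 CPM). No counting interval held 0, and the difference between libraries was not tested, with 1 library per group. With the top 1% of cells of each bin left out, Areg was 4.42 and 1.95 CPM in the Lpar6 knockout, 2.95 and 3.12 CPM in the Cab39l knockout and 10.1 and 4.24 CPM in wild type, so the opposite direction in the Cab39l knockout rested on few cells, and 1 basal-low cell held 46 UMIs.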

How the results depend on the processing

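Each of 27 member values (9 members in 3 comparisons) was recomputed under 20 alternatives, 4 of them chosen after seeing the data, and no called value changed sign. In the Lpar6 knockout Fgfr3 stayed past 1.5-fold under all 20 and Areg under 19, Hbegf did under 19 in each knockout, and in the Cab39l knockout Areg did under 17, Fgfr3 under 15 and Egfr under 12. Areg fell short in both without the top 1% of cells. Members past 1.5-fold in the Lpar6 knockout numbered 7 with the median gene not taken off and 6 with no minimum of UMIs, in place of 3. In the Cab39l knockout they numbered 7 under each of these, and 2 by like length, with a pseudocount of 5 CPM, at most 10% mitochondrial UMIs, thinning, cells of 5 to 10% mitochondrial UMIs and 15000 to 40000 UMIs, or basal-high or basal-low cells alone, in place of 4. Between the knockouts 1 member, Areg, passed in place of 0 in basal-high cells (0.70) and in basal-low cells (-0.85). Pathway genes in the Lpar6 knockout numbered 13 without the median taken off, 10 with no minimum, 3 with a pseudocount of 5 CPM, at least 200 UMIs per gene or 0.5% uroplakins, 2 with TMM, median of ratios or the cells of matched depth, and 1 by like length, at most 10% mitochondrial UMIs or basal-high cells alone, in place of 5. In the Cab39l knockout they numbered 14, 12 with no minimum, 3 with TMM or median of ratios and 1 by like length, in place of 6, and between the knockouts 1 in place of 0 with a pseudocount of 0.1 CPM. Fibroblast-like members 2-fold higher were 0 in place of 2 after thinning to 1000 UMIs, where 4 members met the UMI minimum, and those lower 2 in place of 4 after thinning or with a pseudocount of 5 CPM. Immune-like members 2-fold lower were 6 in place of 3 with carry-over taken off. The other causes were not tested. The few fibroblast-like barcodes limit every value of that class. No paired analysis was possible because each group is 1 library.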

Other observations

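Fgfr1 in macrophage- or dendritic-like barcodes stood with the complement genes C1qa, C1qb and C1qc, a split chosen after values were seen. Barcodes with at least 0.2% of UMIs in these genes, which are known from tissue macrophages, numbered 7 in the Lpar6 knockout, 30 in the Cab39l knockout and 16 in wild type. Fgfr1 was 173 CPM in them (56.1 to 403, 5 UMIs), 240 CPM (181 to 310, 57 UMIs) and 105 CPM (48.0 to 199, 9 UMIs). In the other 30, 30 and 210 macrophage- or dendritic-like barcodes it was 29.4 CPM (6.05 to 85.8, 3 UMIs), 88.4 CPM (50.5 to 144, 16 UMIs) and 12.7 CPM (7.11 to 21.0, 15 UMIs). Fgfr1 was thus higher in the complement-positive barcodes of each library, with intervals apart in the Cab39l knockout and wild type, although 1 wild-type barcode held 5 of the 9 UMIs and without it the level was 51.6 CPM (14.1 to 132), an interval that overlaps the other. Over all such barcodes the wild-type level was low, and so was its share of complement-positive ones. Wild type was also the lowest within each kind, with intervals apart only from the complement-low barcodes of the Cab39l knockout. The part of the mix in the low wild-type level was not tested. Of the fibroblast genes Col1a1, Pdgfra and Dcn, Dcn was counted in the complement-low barcodes of the Lpar6 knockout (9.79 CPM) and the Cab39l knockout (5.52 CPM), and the rest had no UMI in either kind. The endothelial marker Pecam1 was 34.6, 0 and 23.3 CPM in the complement-positive barcodes and 29.4, 0 and 11.9 CPM in the others. The chemokine Cxcl13 was 1278, 1522 and 2346 CPM in the complement-positive barcodes and 19.6, 0 and 0 CPM in the others.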
